A study of Mus musculus with 12 samples.

Results

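Zinc finger protein genes, named Zfp in the mouse, were followed in B16F10 cells, a mouse melanoma line, after depletion of Osgep. The genes were chosen by their total RNA level in control cells, as the protein-coding genes whose symbol is Zfp followed by digits only, without Zfp598, with a mean of at least 10 CPM in the total RNA of the 3 control libraries. For this rule CPM is a gene's count over the column total, times 1e+06, and all other CPM are per 1e+06 counts of a library size from filtered genes scaled by TMM factors, which make libraries of one assay comparable. By this rule 168 of 364 protein-coding Zfp genes were taken, out of 55487 genes in the count tables, and 196 lay under the limit. Of those 196, 138 had 1 to 10 CPM, 58 had less than 1 CPM, and 24 of the 58 were at 0. Just inside the limit were Zfp39 at 10.2 CPM, Zfp345 at 10.2 CPM and Zfp850 at 10.5 CPM, and just outside it Zfp764 at 9.98 CPM, Zfp101 at 9.93 CPM and Zfp329 at 9.90 CPM.

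In one group the line carried a control hairpin (shCtr), and in the other the hairpin #2 directed at Osgep (shOSGEP). Both groups were grown in the same serum-containing medium and received cycloheximide, which arrests ribosomes, before lysis. OSGEP is the catalytic subunit of the complex that places N6-threonylcarbamoyladenosine (t6A) beside the anticodon of the tRNAs that read codons starting with A, the ANN codons. Ribosome-protected fragments (RPF or footprints, the pieces of mRNA covered by a ribosome, here from active ribosomes pulled down with a puromycin analogue) and total RNA were sequenced from 3 replicates of each genotype, 12 libraries in all. The shOSGEP group is 1 hairpin in 1 cell line, and the study's methods give 3 independent transductions for all experiments, while the labels number the replicates without naming their source.

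Most Zfp genes encode proteins with tandem C2H2 zinc fingers, short loops held by a zinc ion between a pair of cysteines and a pair of histidines, which read DNA base by base. Many also carry a Krüppel-associated box (KRAB), a repression domain that recruits TRIM28 and, through it, SETDB1 and heterochromatin protein 1 to silence retroelements and imprinted loci. Others are RNA-binding proteins, ribosome assembly factors or ubiquitin and SUMO ligases. Neighbouring fingers are joined by a conserved linker of threonine, glycine, glutamate, lysine or arginine, and proline, in which threonine and lysine are always encoded by ANN codons.

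The coding sequence of single fingers is shown for 7 genes, because the fingers are what the family shares and because ANN codons, in capitals here, are those read by t6A-bearing tRNAs. Zfp41 and Zfp961 had lower footprints in every pair, Zfp870 and Zfp276 higher ones, Zfp652 had a high footprint-to-RNA ratio, and Zfp316 and Zfp62 had the lowest and the highest ANN share among genes with more than 3 fingers and less than 10% shared sequence. Each run is the coding strand in frame, from the first zinc-binding cysteine, and ends after the linker where one follows directly (all but Zfp870 and Zfp276). Sequences are from GENCODE M21 transcripts and were identical to the GRCm38 genome at chr15:75618465-75618542 (Zfp41, plus strand, exon 2), chr8:71968410-71968487 (Zfp961, plus strand, exon 4), chr17:32883457-32883519 (Zfp870, minus strand, exon 4), chr8:123265356-123265427 (Zfp276, plus strand, exon 9), chr11:95763556-95763633 (Zfp652, plus strand, exon 6), chr5:143255075-143255152 (Zfp316, minus strand, exon 7) and chr11:49215543-49215620 (Zfp62, plus strand, exon 5).
Zfp41: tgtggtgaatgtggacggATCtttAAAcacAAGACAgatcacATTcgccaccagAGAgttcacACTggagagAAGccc
Zfp961: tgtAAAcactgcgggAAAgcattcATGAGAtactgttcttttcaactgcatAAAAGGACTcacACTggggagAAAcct
Zfp870: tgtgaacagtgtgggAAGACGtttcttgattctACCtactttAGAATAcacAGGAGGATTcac
Zfp276: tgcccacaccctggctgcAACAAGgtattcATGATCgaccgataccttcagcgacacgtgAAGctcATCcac
Zfp652: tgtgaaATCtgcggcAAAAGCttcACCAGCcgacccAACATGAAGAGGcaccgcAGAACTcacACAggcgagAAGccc
Zfp316: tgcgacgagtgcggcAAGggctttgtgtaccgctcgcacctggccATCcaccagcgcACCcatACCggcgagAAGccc
Zfp62: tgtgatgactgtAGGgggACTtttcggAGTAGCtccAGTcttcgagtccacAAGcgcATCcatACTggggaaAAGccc

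In these fingers 5 of 26 codons of Zfp316, 8 of 26 of Zfp41, 9 of 26 of Zfp961, 9 of 26 of Zfp62 and 13 of 26 of Zfp652 were ANN codons. Zfp870 had 8 of 21 and Zfp276 6 of 24. Only 1 finger per gene is shown, and its share can differ from the gene's. Zfp652 had 30.9% ANN codons in its whole coding sequence and Zfp62 had 36.6%. Over the whole coding sequence the ANN share ran from 13.2% in Zfp316 to 40.1% in Zfp991, with a median of 28.6%, and 105 of 168 genes lay above the median of 27.2% of all protein-coding genes with at least 10 CPM. In the 150 genes with 3 or more fingers the median ANN share was 28.6% inside the fingers and 28.7% outside, with the higher share inside in 86 genes. In the 120 of them with a linker the linkers had a median of 40.0%. This value follows from the linker's residues, since threonine and lysine always take ANN codons. In all, 165 of the 168 genes had at least 1 match to the C2H2 pattern (2 to 4 residues between the cysteines, 12 to the first histidine and 3 to 5 between the histidines), 85 had 10 or more, and the median was 10. Zfp330, Zfp365 and Zfp703 had none. Of the 168 genes, 43 matched a pattern for the A part of the KRAB domain, and these had a median of 14 fingers and a median ANN share of 30.6%, against 8 fingers and 27.9% in the other 125. GC content of the coding sequence went the other way, with medians of 43.1% and 53.3%.

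The genes were spread over 20 chromosomes, with 36 of 168 (21.4%) on chromosome 7, which held 6.74% of protein-coding genes with at least 10 CPM, and 17 (10.1%) on chromosome 17, which held 4.88%. Counted as runs of 4 or more members with gaps of at most 500 kb, 8 runs held 47 of the genes. Some genes share sequence. Cut into windows of 30 bases, 35 of 168 coding sequences had over 10% of windows that also occurred in transcripts of another gene. The share was 99.0% in Zfp706, 98.5% in Zfp991 and 81.2% in Zfp984, and counts of these genes are uncertain. The study's methods name Salmon for RNA sequencing and perfect matches for footprints, but do not say how these gene counts divided reads with several matches. Exon bases were shared with another annotated gene in 62 genes, in 53 of them with a gene on the opposite strand, and the use of strand in counting is not given.

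Depth differed between the assays. Total RNA libraries had 46.7 to 81.1 M counts (M, 1e+06), and the median count of the 168 genes per library was 1344 to 2024. RPF libraries were smaller, with 12.9 to 40.3 M counts in all and 4.42 to 17.0 M on protein-coding genes, and the median count was 97.0 in shOSGEP replicate 1 and 158 to 649.5 in the other 5, with 33 genes under 50 counts in shOSGEP replicate 1. Osgep RNA, the check on the hairpin, was 13.9, 15.7 and 15.3 CPM in shCtr replicates 1, 2 and 3 and 0.589, 6.92 and 6.77 CPM in shOSGEP, so it was lower in every pair and lowest in pair 1. Osgep footprints were 7.72, 7.27 and 4.71 CPM in shCtr and 4.87, 3.81 and 2.36 CPM in shOSGEP, lower in every pair. The groups overlapped, and on the log2 scale the difference was smallest in pair 1. All 7 melanocyte markers were expressed in shCtr RNA, the lowest being Tyr at 145 CPM. Their summed RNA level was 13112, 16837 and 9665 CPM in shCtr and 2655, 12789 and 11390 CPM in shOSGEP, and in pair 1 all 7 were lower, by log2 differences of -3.83 to -0.41. In pair 2 all 7 were lower too (-1.21 to -0.071), and in pair 3 2 of 7 were (-0.18 to 0.45). Of 11 markers of immune, endothelial, epithelial and fibroblast cells, 9 were under 1 CPM in shCtr RNA, the highest being Pdgfra at 4.01 CPM, and 4 were at 0 in all 6 RNA libraries. Their summed RNA level was 8.93, 7.42 and 6.72 CPM in shCtr and 25.5, 10.2 and 10.5 CPM in shOSGEP, and in shOSGEP replicate 1 Col1a1 was at 15.3 and Pdgfra at 8.65 CPM. Col1a2, also a fibroblast marker, went the other way in pair 1, from 3.42 CPM in shCtr to 1.26 CPM in shOSGEP. The shOSGEP library of replicate 1 thus stood apart, and without pair 1 the median fitted changes of the Zfp genes were -0.014 in RNA, 0.070 in footprints and 0.11 in the ratio of footprints to RNA. In bulk samples fewer cells of a type and less RNA per cell cannot be told apart.

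The level of each gene in control cells was described first. Levels of total RNA chose the genes and are given with no test. Per kb of exon, Zfp106, an RNA-binding protein, was highest at 43.4 ± 2.11 CPM per kb (SD, n = 3). Its total RNA was 441, 439 and 478 CPM in shCtr replicates 1, 2 and 3 and 380, 462 and 468 CPM in shOSGEP. Next came Zfp207 (33.3), a microtubule-binding and spindle checkpoint factor also linked to splicing, then Zfp706 (30.2), Zfp703 (25.2), a corepressor, and Zfp609 (23.4), a partner of cohesin loading. The lowest of the 168 was 1.09 and the median 5.13 CPM per kb, against 10.3 CPM per kb in protein-coding genes with at least 10 CPM and 6.40 CPM per kb in 51 genes of other zinc finger families at that level (Zbtb, Zkscan, Zscan and Klf). Genes with the KRAB pattern had a median of 3.37 and the others of 5.92 CPM per kb. Of the exon bases of Zfp106, 26.1% are shared with an annotated gene on the opposite strand.

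All 168 genes together took 0.734%, 0.763% and 0.860% of protein-coding total RNA counts in shCtr replicates 1, 2 and 3 and 0.752%, 0.778% and 0.848% in shOSGEP. In footprints they took 0.727%, 0.869% and 1.12% in shCtr and 0.616%, 0.994% and 1.23% in shOSGEP. The groups overlapped in both assays, and libraries of one replicate number lay closer to each other than to the other libraries of their genotype in RNA and in footprints alike.

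**Figure D1:**
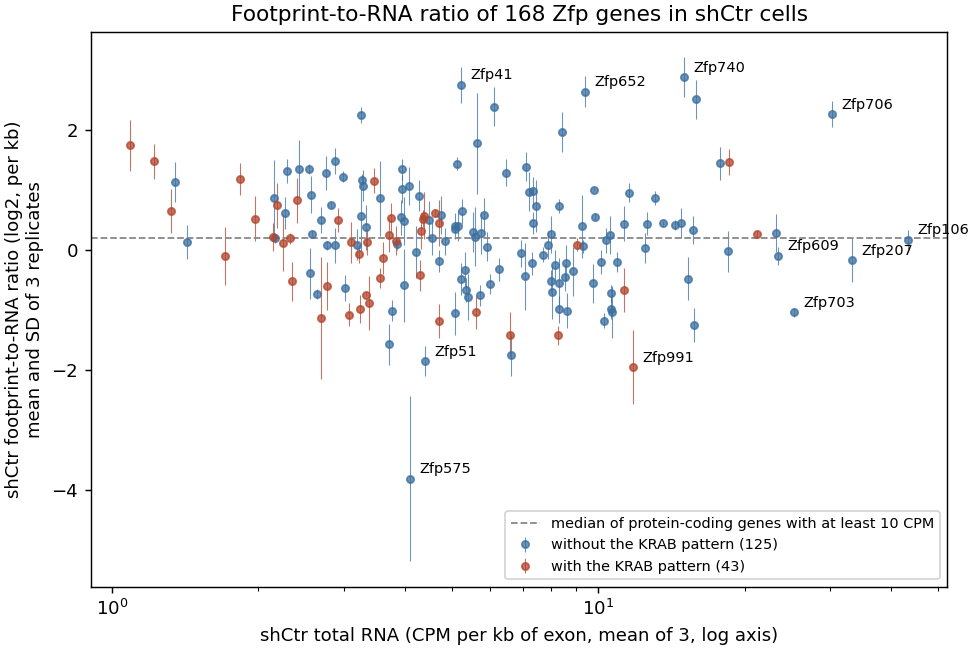
Footprint-to-RNA ratio in shCtr cells (log2, footprints per kb of coding sequence over RNA per kb of exon, mean and SD of 3 replicates) against total RNA level (CPM per kb of exon, log axis) for 168 Zfp genes. Points spread on both sides of the dashed median of protein-coding genes, from Zfp740 at 2.88 down to Zfp575, which had almost no footprint counts.

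The ratio of footprints to RNA, each per kb and on the log2 scale, measures how densely ribosomes cover a transcript. In shCtr cells the median over the 168 genes was 0.07, 0.20 and 0.37 in replicates 1, 2 and 3 (mean 0.22 ± 0.15, SD), against 0.22 ± 0.018 in protein-coding genes with at least 10 CPM, and 82 of 168 genes lay under the median of those. In shOSGEP the medians were -0.11, 0.31 and 0.49 (mean 0.23 ± 0.31), so the spread between replicates was larger than the difference of the means. The order of the replicates was the same in both genotypes, and in protein-coding genes as a whole the 6 values stayed between 0.18 and 0.24.

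Zfp740 had the highest ratio, 2.68, 2.70 and 3.27 in shCtr replicates 1, 2 and 3 (mean 2.88 ± 0.33, SD, log2). Zfp41 followed with 2.47, 2.75 and 3.07 (2.76 ± 0.30), and Zfp652, a partner of the corepressor CBFA2T3, with 2.40, 2.63 and 2.91 (2.65 ± 0.26). These 3 genes overlapped one another within their spread and all had coding sequences that were short against their exons, with 543 of 5091 bases in Zfp740, 597 of 8595 in Zfp41 and 1827 of 15444 in Zfp652. The correction for length raises the ratio of such genes. At the other end Zfp575 had 15.3, 8.03 and 10.4 CPM of shCtr RNA but 1, 6 and 4 footprint counts in shCtr and 1, 4 and 0 in shOSGEP. It did not pass the footprint filter, and its ratio of -3.81 depends on the prior count. Zfp991 was at -1.95 ± 0.62 and Zfp51 at -1.85 ± 0.25, and 98.5% and 12.1% of their coding windows were shared with other genes.

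By role, the 8 genes of the RNA and ribosome list had a median ratio of 0.50 ± 0.20 (SD of the 3 shCtr medians, log2) and the 22 transcription factors and corepressor partners of 0.04 ± 0.23. Zfp622, which acts in the late maturation of the large ribosomal subunit in the cytoplasm, was at 1.44 ± 0.11, Zfp346, a double-stranded RNA-binding protein, at 1.39 ± 0.24, and Zfp326, a splicing and elongation factor, at 1.29 ± 0.23. In the same list Zfp207 was at -0.165 ± 0.37 and Zfp830, a pre-mRNA processing factor, at -0.19 ± 0.20. Among transcription factors Zfp410, the activator of Chd4, had 1.49 ± 0.22, while Zfp703 had -1.04 ± 0.074, Zfp281 -1.01 ± 0.29 and Zfp335 -0.99 ± 0.23. The ubiquitin and SUMO ligases Zfp91 and Zfp451 were at 1.45 ± 0.27 and 0.96 ± 0.16.

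To examine whether loss of Osgep changed the RNA of these genes, shOSGEP and shCtr total RNA were compared. Fitted log2 changes ran from -0.44 in Zfp41 to 0.95 in Zfp467, whose pairs differed in sign (1.79, -0.12 and 0.16), with a median of -0.023 over 168 genes, against -0.018 in protein-coding genes with at least 10 CPM and 0.021 over all genes tested. The edgeR quasi-likelihood test called no gene at an adjusted p under 0.05, 0 of 168 here and 0 of 14516 overall (0.0%), and at an unadjusted p under 0.05 it passed 0 of 168 against 259 overall (1.78%). With DESeq2, 0 of 168 and 8 of 14516 were called. Because shCtr RNA chose the genes, these counts are descriptions. RNA was higher in all 3 pairs for 29 genes (17.3%, background 17.7%) and lower in all 3 for 32 (19.0%, background 16.2%). The groups did not overlap, with shOSGEP higher, in Zfp131, Zfp507, Zfp830 and Zfp994 (2.38%, background 4.0%) and, with shOSGEP lower, in Zfp319 and Zfp984 (1.19%, background 3.09%).

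Of the 61 genes whose RNA had one direction in all 3 pairs, 50 had the largest difference in pair 1. The same share was not computed over all genes, so the count describes the libraries and is not read as particular to Zfp genes. In pair 1 the melanocyte markers were lower, and of the fibroblast markers Col1a1 and Pdgfra were higher and Col1a2 lower (-1.42). The part of these in the result was not tested. Zfp41 RNA was 39.7, 46.2 and 48.9 CPM in shCtr replicates 1, 2 and 3 and 16, 39.9 and 43.6 CPM in shOSGEP, a fitted log2 change of -0.44 ± 0.36 (SE here and below), with shOSGEP replicate 1 apart from the other 5 libraries. Zfp652 RNA was 134, 145 and 157 CPM in shCtr and 59.2, 142 and 139 CPM in shOSGEP (-0.35 ± 0.32), and Zfp292, a large DNA-binding factor, 45.6, 50.02 and 56.6 against 22.6, 49.8 and 48.6 CPM (-0.33 ± 0.30). In pair 1 the log2 differences of Zfp41, Zfp652 and Zfp292 were -1.30, -1.18 and -1.01, and in pairs 2 and 3 none of the 3 genes was beyond -0.22. Of the exon bases of Zfp652, 19.97% overlap another gene.

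In the other direction, Zfp597 RNA was 10.5, 15.6 and 19.6 CPM in shCtr and 32.3, 18.6 and 21 CPM in shOSGEP (0.65 ± 0.31). Zfp703 RNA was 124, 53.8 and 79.6 against 233, 60.1 and 84.8 CPM (0.56 ± 0.54), and without shOSGEP replicate 1 the fitted change was -0.25. Zfp346 RNA was 30.9, 25.7 and 32.5 against 52.4, 30.2 and 38.1 CPM (0.44 ± 0.23). Groups overlapped in all 3 genes. In pair 1, 9 of 168 genes (5.36%) moved by over 1 log2 unit either way, against 13.7% of protein-coding genes with at least 10 CPM, and in pairs 2 and 3 none did.

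**Figure D2:**
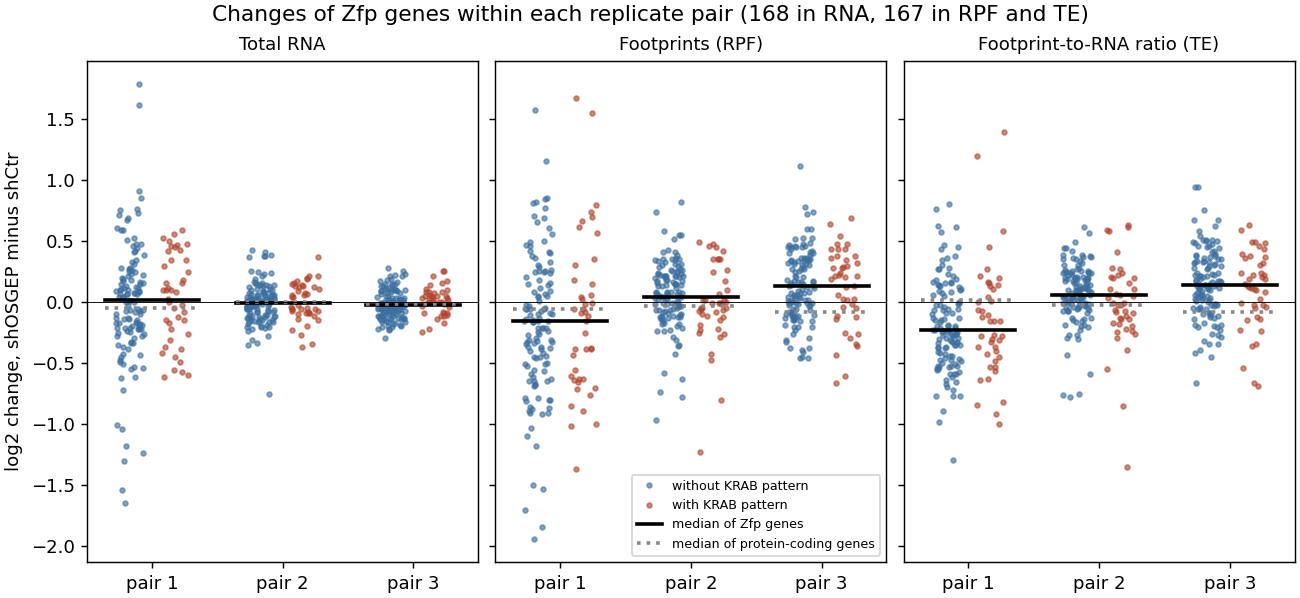
Log2 change (shOSGEP minus shCtr) within each replicate pair of Zfp genes in total RNA, footprints and the footprint-to-RNA ratio, 1 point per gene, in blue without and in red with the KRAB pattern. Black bars are medians of Zfp genes and dotted grey bars those of protein-coding genes with at least 10 CPM. Pair 1 is widest, and the median of footprints and of the ratio is below 0 in pair 1 and above 0 in pairs 2 and 3.

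To examine whether ribosome occupancy changed, footprints were compared in the same way. The rule did not use footprints, but the members were chosen with earlier results of these data known. The counts below are therefore descriptions too. No gene was called among 167 tested here or among 13529 overall (0.0%) with edgeR, and 0 of 167 had an unadjusted p under 0.05, against 139 overall (1.03%). DESeq2 called 0 of 167 and 1 of 13529. The fitted log2 changes ran from -0.59 in Zfp41 to 0.85 in Zfp467 with a median of 0.026, against -0.026 in protein-coding genes with at least 10 CPM and 0.045 over all genes tested. The smallest unadjusted p of a member was 0.061, in Zfp870, with an adjusted p of 0.9998 in edgeR. Footprints were higher in all 3 pairs for 25 genes (15.0%, background 15.6%) and lower for 21 (12.6%, background 15.3%).

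The direction depended on the pair. In pair 1 the median footprint change was -0.16 and 58 of 167 genes were above 0, in pair 2 it was 0.043 with 95 above 0, and in pair 3 it was 0.13 with 110 above 0. In protein-coding genes with at least 10 CPM the medians were -0.057, -0.029 and -0.084. The RNA medians of the Zfp genes stayed near 0 in each pair, at 0.015, -0.010 and -0.022. In pair 1 the shOSGEP footprint library had the fewest protein-coding counts, the Osgep RNA was lowest and footprints of all 7 melanocyte markers were lower (-3.25 to -0.65), and the part of each in this difference between pairs was not tested.

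Groups did not overlap in footprints, with shOSGEP higher, in 7 genes of 167 (4.19%, background 2.43%). These were Zfp62, Zfp87, Zfp330, Zfp622, Zfp715, Zfp830 and Zfp870. With shOSGEP lower there were 0 (0.0%, background 2.64%). Zfp622 footprints were 19.0, 22.1 and 18.6 CPM in shCtr and 24.4, 22.3 and 25.7 CPM in shOSGEP, with RNA at 36.8, 37.2 and 35.7 against 36.8, 37.5 and 34.6 CPM. The RNA was nearly level across the 6 libraries, and in pair 2 the footprints differed by only 0.01 on the log2 scale. Zfp330 footprints were higher in every pair, by 0.49, 0.33 and 0.36 on the log2 scale, but 53.7% of its coding windows were shared with other genes. None of the 7 was called.

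**Figure D3:**
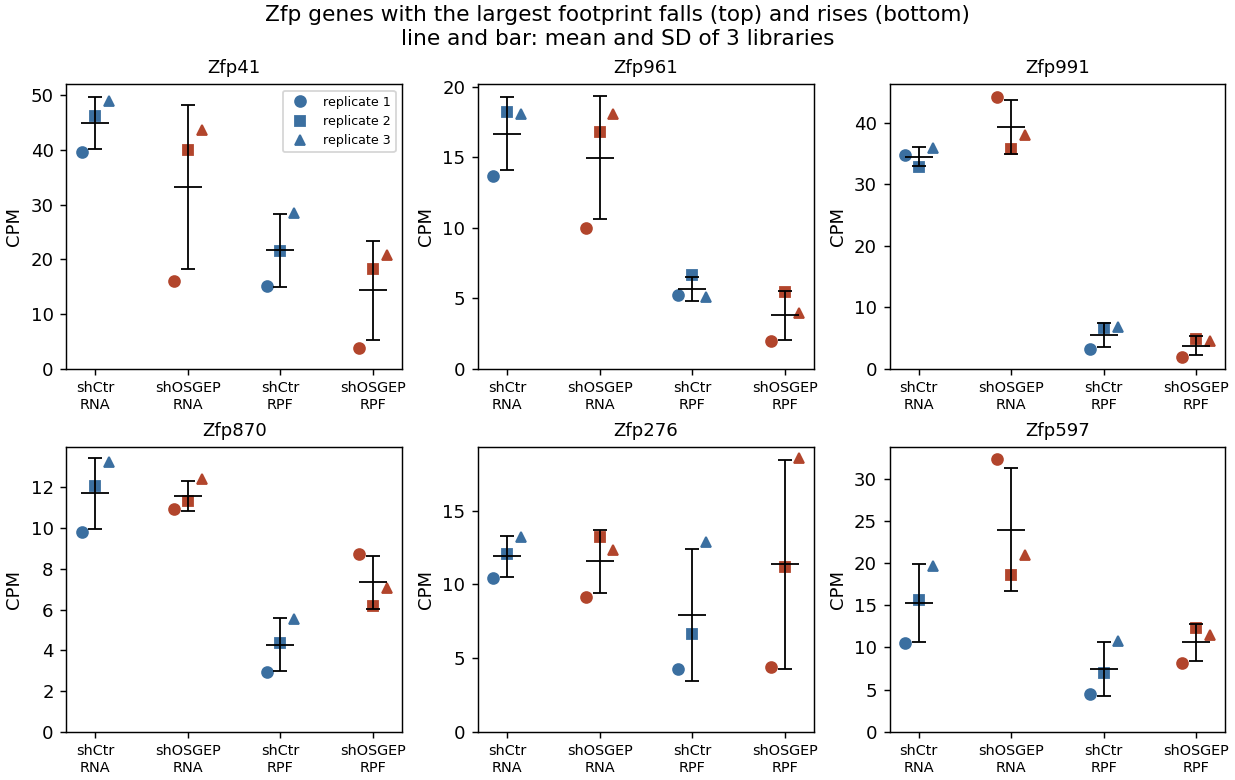
CPM in all 12 libraries of the 3 Zfp genes with the most negative (top row) and the 3 with the most positive (bottom row) footprint change among those with one direction in every pair. Points are libraries, marked by replicate, with mean and SD. Groups overlap in every panel except footprints of Zfp870, where shCtr reaches 5.53 and shOSGEP starts at 6.19 CPM.

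Zfp870, a gene with the KRAB pattern on chromosome 17, had 2.93, 4.36 and 5.53 footprint CPM in shCtr replicates 1, 2 and 3 and 8.75, 6.19 and 7.05 CPM in shOSGEP. This was a fitted log2 change of 0.77 ± 0.35, and RNA was 9.82, 12.1 and 13.2 against 11, 11.3 and 12.4 CPM. Footprint counts per library were 52 to 276. The footprint difference was 1.56 in pair 1, 0.50 in pair 2 and 0.35 in pair 3, on the log2 scale. Of its exon bases 8.03% are shared with the opposite strand.

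Zfp276 footprints were 4.23, 6.67 and 12.9 CPM in shCtr and 4.38, 11.2 and 18.6 CPM in shOSGEP (0.52 ± 0.60), higher in each pair while the groups overlapped widely. Without shOSGEP replicate 3 the fitted change was -0.026. Of its exon bases 19.4% are shared with genes on the opposite strand, chiefly Fanca. Zfp597 footprints were 4.45, 6.91 and 10.8 CPM in shCtr and 8.09, 12.3 and 11.4 CPM in shOSGEP (0.52 ± 0.38), and its RNA was also higher in each pair, most in pair 1. Of its exon bases 27.1% are shared with the opposite strand.

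Differences in the other direction were within the spread as well. Zfp41 footprints were 15.2, 21.5 and 28.5 CPM in shCtr and 3.88, 18.3 and 20.8 CPM in shOSGEP (-0.59 ± 0.59), lowest in shOSGEP replicate 1 like its RNA. Zfp961, listed here with imprinting and retroelement silencing, had 5.24, 6.67 and 5.07 CPM in shCtr and 1.98, 5.45 and 3.94 CPM in shOSGEP (-0.57 ± 0.42). Zfp991 had 3.16, 6.55 and 6.77 CPM in shCtr and 1.98, 4.86 and 4.43 CPM in shOSGEP (-0.54 ± 0.48), while its RNA was 34.7, 32.8 and 35.8 against 44.1, 35.7 and 37.9 CPM. The groups overlapped in footprints of all 3.

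The ratio of footprints to RNA, the translational efficiency (TE), was taken from a fit of all 12 libraries, as the change in footprints beyond the change in RNA. No gene was called, 0 of 167 and 0 of 12560 overall (0.0%), and 0 of 167 had an unadjusted p under 0.05, against 17 overall (0.135%). DESeq2 also called none. As shCtr RNA enters both the rule and this ratio, the members' values are descriptions. The median log2 change was 0.039, against -0.026 in protein-coding genes with at least 10 CPM, and the pair medians were -0.23, 0.060 and 0.14, with 50, 102 and 117 of 167 genes above 0. The ratio was higher in all 3 pairs for 17 genes (10.2%, background 11.6%) and lower for 15 (8.98%, background 11.2%). Groups did not overlap with shOSGEP higher in Zfp146, Zfp622, Zfp715, Zfp870 and Zfp930 (2.99%, background 2.03%) and with shOSGEP lower in Zfp367 (0.599%, background 2.31%).

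Among genes with one direction in every pair, the largest positive changes of the ratio were in Zfp870 (0.78 ± 0.38), Zfp276 (0.56 ± 0.68) and Zfp511 (0.43 ± 0.37), and the largest negative ones in Zfp991 (-0.73 ± 0.47), Zfp961 (-0.41 ± 0.49) and Zfp251 (-0.29 ± 0.55). For Zfp991 the pair values were -0.998, -0.55 and -0.69, on 24 to 338 footprint counts per library, and these counts are uncertain because of the shared sequence. For Zfp511 they were 0.38, 0.02 and 0.76, and for Zfp251 -0.67, -0.01 and -0.32, so pair 2 was near 0 in both.

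**Figure D4:**
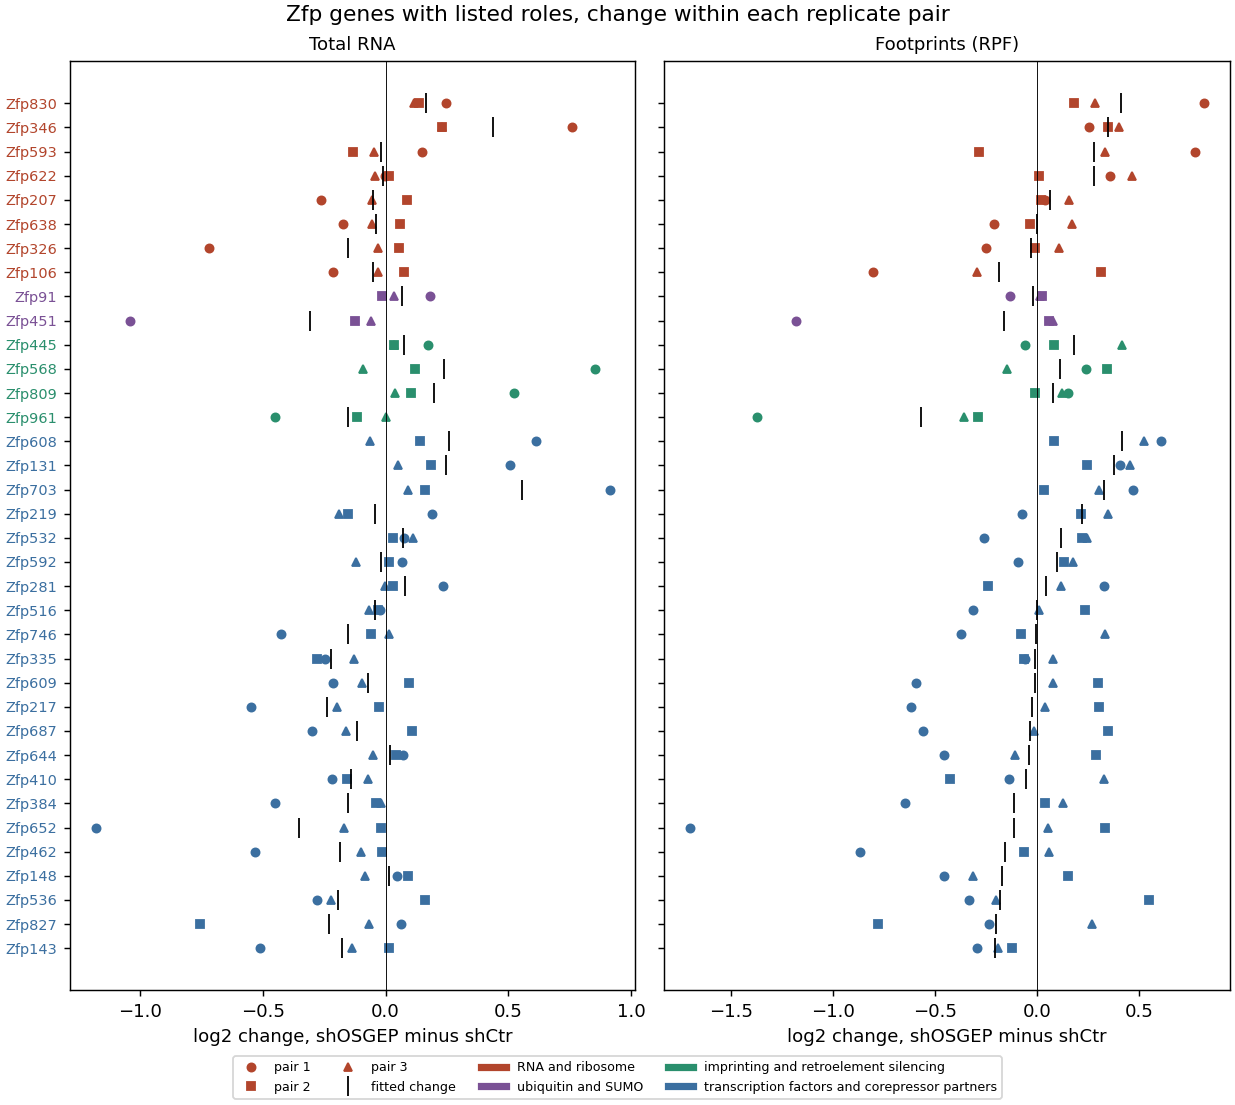
Log2 change (shOSGEP minus shCtr) of the 36 Zfp genes with listed roles in total RNA (left) and footprints (right), with pair 1 as circles, pair 2 as squares, pair 3 as triangles and the fitted change as a tick. Names and points are coloured by list. Pair 1 lies farthest from 0 in most genes, and pairs fall on both sides of 0 in most transcription factors.

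The lists of roles were compared next, with 0 genes called in each list and assay by edgeR. Of 8 genes of the RNA and ribosome list, 5 had fitted footprint changes above 0, with a median of 0.17 (range -0.19 to 0.41). In all 3 pairs 4 were higher, namely Zfp207, Zfp346, Zfp622 and Zfp830, against 15.6% of all genes tested. The list was chosen with earlier results of these data known, and Zfp207 differed by only 0.038, 0.022 and 0.16 on the log2 scale. Zfp830 footprints were 7.55, 10.5 and 11.1 CPM in shCtr and 13.4, 11.9 and 13.5 CPM in shOSGEP (0.41 ± 0.26), and its RNA was also higher in each pair, by 0.24, 0.14 and 0.12. Zfp346 footprints were 15.9, 13.9 and 22.9 against 19.1, 17.8 and 30.3 CPM (0.35 ± 0.32). Zfp593, which acts in large ribosomal subunit biogenesis, had only 52 footprint counts in shOSGEP replicate 1 and pair changes of 0.78, -0.29 and 0.34, and 77.9% of its exon bases are shared with the opposite strand. Zfp106, the most abundant, had 247, 263 and 332 footprint CPM in shCtr and 141, 326 and 271 CPM in shOSGEP (-0.19 ± 0.39), with pair 2 opposite to the others. Zfp638, an RNA-binding protein of the nucleus, had a fitted footprint change of -0.0012 ± 0.43.

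Zfp91, a ubiquitin ligase, had RNA at 177, 182 and 177 CPM in shCtr and 201, 180 and 181 CPM in shOSGEP. Zfp451, a SUMO ligase, had 159, 205 and 185 against 77.4, 188 and 178 CPM, so the genotypes were far apart only in pair 1 (-1.04). Their fitted footprint changes were -0.021 ± 0.30 and -0.16 ± 0.49.

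Of 4 genes known for silencing of retroelements or imprinted genes, footprints of Zfp445, Zfp568 and Zfp809 had fitted log2 changes of 0.18, 0.11 and 0.081 and Zfp961 of -0.57. Zfp445, which maintains imprints, had RNA of 76.2, 98.3 and 105 CPM in shCtr and 86.0, 101 and 108 CPM in shOSGEP, higher in each pair by at most 0.18. Zfp809, which represses murine leukaemia virus through its primer binding site, had 19.9, 29.7 and 30.7 against 28.6, 32.0 and 31.6 CPM (0.20 ± 0.20), and Zfp568, a repressor of a placental Igf2 transcript, 18.6, 32.2 and 36.2 against 33.7, 35.0 and 34 CPM (0.24 ± 0.25). In both, the genotypes were farthest apart in replicate 1.

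Of 22 transcription factors and corepressor partners, 8 had fitted footprint changes above 0 and 14 below, with a median of -0.018 and a range from -0.21 to 0.42. Footprints were higher in all 3 pairs in Zfp131, Zfp608 and Zfp703 and lower in all 3 in Zfp143, a promoter-binding activator, at 12.3, 10.9 and 9.27 against 9.99, 10.0 and 8.11 CPM. Of all genes tested, 15.6% were higher and 15.3% lower in every pair. Zfp608 footprints were 25.2, 28.9 and 31.3 CPM in shCtr and 38.5, 30.6 and 45 CPM in shOSGEP (0.42 ± 0.25), and Zfp131 footprints 9.75, 14.9 and 17.5 against 13.0, 17.6 and 24.1 CPM (0.38 ± 0.34). Median pair changes of the list in footprints were -0.31, 0.14 and 0.098.

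The 43 KRAB genes had a median fitted footprint change of -0.0034 with 21 above 0, and the other 124 of 0.034 with 67 above 0. In RNA the medians were 0.022 and -0.026. The pattern missed Zfp445 and Zfp568, which are known KRAB genes, so the 43 are not all such genes. The genes through which KRAB proteins silence were given as a list of 17, from Trim28 and Setdb1 to Chd4 and Hdac1, and 0 of 17 were called in RNA or footprints by edgeR, with 7 and 9 above 0. Trim28, the KRAB corepressor, had RNA of 295, 352 and 311 CPM in shCtr and 157, 319 and 280 CPM in shOSGEP, and footprints of 130, 111 and 77.5 against 85.6, 99.2 and 60.7 CPM. It was lower in every pair in both assays, as were Mta2, Pphln1, and Dnmt1 and Uhrf1, the maintenance methyltransferase and its partner. In pair 1 the RNA changes of these 4 were -0.40, -0.085, -1.69 and -1.87. In pair 2 they were -0.19, -0.011, -0.16 and -0.093, and in pair 3 -0.14, -0.035, -0.19 and -0.19. Mphosph8, a subunit of the HUSH silencing complex, was higher in all 3 pairs in RNA (0.63, 0.15 and 0.20). In all, 6 of the 17 were lower and 1 higher in every pair in RNA, and 6 lower and 3 higher in footprints. Of all genes tested, 16.2% were lower and 17.7% higher in every pair in RNA, and 15.3% lower and 15.6% higher in footprints. The groups overlapped in Trim28 RNA and in Trim28 footprints, and in RNA of Pphln1, Dnmt1, Uhrf1 and Mphosph8. In Mta2 RNA they did not, at 118, 128 and 115 CPM in shCtr and 89.1, 112 and 105 CPM in shOSGEP. Such a gap with shOSGEP lower was present in 3.09% of all genes tested.

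In the 8 runs of neighbouring genes the median footprint changes of the 3 pairs differed in sign in all but 1. In the 6 genes on chromosome 7 from 127233061 to 127885996 (Zfp553, Zfp771, Zfp768, Zfp629, Zfp668 and Zfp646), none with the KRAB pattern, they were -0.66, 0.11 and 0.28. In the 7 on chromosome 6 from 47835661 to 48623227 they were -0.37, 0.065 and 0.33. The exception was the run of 6 on chromosome 17 from 32765496 to 33631779, which include Zfp870, with 0.16, 0.019 and 0.046 and a median of fitted changes of -0.00071.

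**Figure D5:**
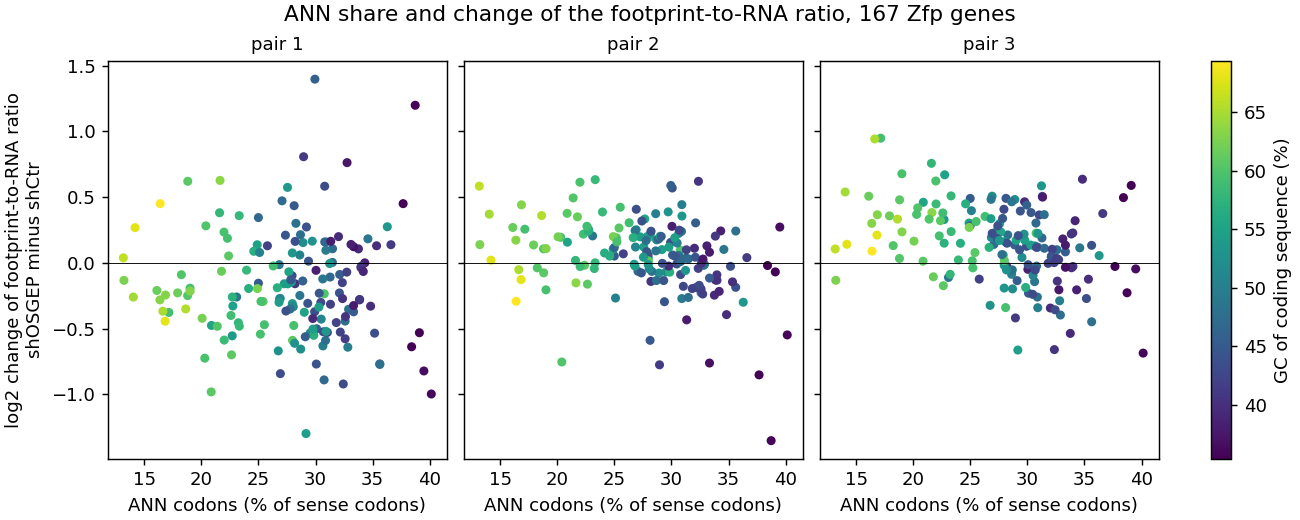
Change of the footprint-to-RNA ratio (log2, shOSGEP minus shCtr) against the ANN share of the coding sequence in each replicate pair, 1 point per Zfp gene (167), coloured by GC content of the coding sequence. In pairs 2 and 3 genes with few ANN codons, which are GC-rich, lie mostly above 0, and in pair 1 no such slope is seen.

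As OSGEP serves tRNAs that read ANN codons, changes were set against the ANN share of each coding sequence. The 42 genes with the lowest ANN share (24.1% or less, 41 tested) had median changes of the ratio of -0.25, 0.17 and 0.33 in pairs 1, 2 and 3, and the 42 with the highest (31.4% or more) -0.25, -0.080 and 0.013. So in pairs 2 and 3 genes with few ANN codons lay above those with many, by medians, while in pair 1 they were level. By footprints alone the medians were -0.31, 0.072 and 0.33 in the 41 with the lowest share and -0.19, -0.074 and -0.0042 in the 42 with the highest. Protein-coding genes with at least 10 CPM within the same bounds had median ratio changes of -0.078, 0.054 and -0.033 (2243 genes) and 0.13, -0.12 and -0.079 (1283 genes).

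Across the 167 genes, Spearman's rho of ANN share with the change of the ratio was -0.06, -0.34 and -0.38 in pairs 1, 2 and 3, and that of GC content was -0.05, 0.33 and 0.26. The points share libraries, and ANN share and GC content themselves had a rho of -0.83 in the 168 genes, so ANN share and GC content cannot be told apart here. In protein-coding genes the rho of ANN share was 0.13, -0.24 and -0.05, and that of GC content -0.17, 0.30 and 0.05 (8798 genes). Genes are not independent replicates, and no p is given.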

How the data were processed

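Deposited files held whole-number read counts per Ensembl gene, which the authors made from RPF and total RNA libraries of B16F10 cells. The study's methods describe STAR alignment and Salmon quantification for RNA sequencing, and STAR alignment of length-selected footprints to a coding transcriptome, with perfect matches kept. The deposited tables hold whole numbers, and the RPF table also has counts outside protein-coding genes, so which steps made them is uncertain. The strand setting and the treatment of multiply matching reads are not given in the sources used here. The build behind the counts is uncertain, as the study's methods name GRCm38 and the labels a second mouse build as well. Symbols, coordinates, exon lengths and the longest complete coding sequence per gene came from GENCODE M21 (GRCm38), which held 55141 of the gene IDs and lacked 346.

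Groups and replicate numbers came from the labels. The main test was edgeR's quasi-likelihood test (edgeR 4.0.16, R 4.3.3, filterByExpr, TMM factors, Benjamini-Hochberg adjustment over all genes tested, threshold 0.05). RPF and total RNA were fitted separately, and TE as the interaction of assay and genotype over all 12 libraries. CPM and log2 CPM used TMM-scaled library sizes of filtered genes, with a prior count of 2 for log2 CPM, while the rule for members used column totals. Changes within a pair are differences between libraries of one replicate number and have no test. The fits were tested on simulated data whose libraries were drawn independently, unlike the libraries here. Same-numbered libraries deviated together from their group means, with correlations across genes that were 0.59, 0.51 and 0.66 (RPF) and 0.52, 0.54 and 0.29 (RNA) for numbers 1, 2 and 3, each over 0.1, so an alternative fit took the replicate number as a block. Other alternatives were RLE size factors, no low-count filter, protein-coding genes only, DESeq2 1.42.0, other limits for members, each library left out and pair 1 left out.

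Genes named were the 3 largest rises and falls per assay with one direction in all pairs, the 5 highest RNA levels per kb, the 3 highest and lowest shCtr ratios, the genes at the limit of 10 CPM and those on the role lists. Genes whose groups did not overlap, Zfp467, Zfp316, Zfp62, Dnmt1, Uhrf1, Mta2, Pphln1, Mphosph8, Col1a1, Col1a2 and Pdgfra were chosen after their values were seen. Members and lists were chosen with earlier results of these data known.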

Additional observations from a re-analysis of the deposited data

How the results depend on the processing

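No member was called in RNA, RPF or TE under any alternative run. With the replicate block the median log2 change of members was -0.021 in RNA, -0.0059 in RPF and 0.026 in TE, and 1 member passed an unadjusted p of 0.05 in RNA (Zfp365), 0 in RPF and 1 in TE (Zfp991). The block changed no member's call, and over all genes edgeR called 1 in RNA with it and 0 without, while DESeq2 called 8 in RNA, 1 in RPF and 0 in TE. Medians near 0 changed sign easily. With single libraries left out the median ran from -0.066 to 0.037 in RNA and from -0.18 (without shOSGEP replicate 3) to 0.20 (without shOSGEP replicate 1) in RPF. With members at 5 CPM or more the RNA median was 0.00296. The shCtr ratio of members had a median of 0.22 on the log2 scale, 0.37 with members at 20 CPM or more, -1.33 without the length correction and 1.57 when scaled to protein-coding counts, since RPF libraries held fewer of these. Of the genes named by rule, 24 of 48 in RNA, 33 of 47 in RPF and 31 of 47 in TE changed sign under at least 1 alternative, mostly with 1 library left out. Depth limits footprint values of single genes, and in shOSGEP replicate 1, 33 members had under 50 footprint counts.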
